A study of Homo sapiens with 11 samples.

Results

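The 37 genes of the human mitochondrial genome (mtDNA) were followed in RNA sequencing libraries of HCC78 cells, a lung adenocarcinoma line. They were chosen by name alone, as the genes whose symbol begins with MT-, and make up 37 of the 57773 genes in the deposited table. The set holds 13 protein-coding genes (MT mRNAs), 2 ribosomal RNA (rRNA) genes and 22 transfer RNA (tRNA) genes. Levels are FPKM, the number of fragments scaled both to the length of the RNA and to the total mapped in the library, so that a long and a short RNA can be compared. In the tests, 15 of the 37 passed the minimum of a mean of 1 FPKM, and the other 22, the tRNAs, did not.

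All cells carried the SLC34A2-ROS1 fusion and an endogenous S34F allele of U2AF1, a splicing factor, and all were cultured with penicillin and streptomycin. Sublines of HCC78 carried a lentiviral, doxycycline-inducible construct for FLAG- and HA-tagged U2AF1, either wild-type (the WT line) or S34F mutant (the S34F line). The 9 RNA libraries were 2 of the WT line with doxycycline (WT dox+), 2 of the S34F line with doxycycline (S34F dox+), 2 of the WT line left untreated (WT dox-), 1 of the untreated S34F line (S34F dox-) and 2 of the untransduced parental line. The labels place the parental libraries without doxycycline, whereas a supplementary table of the study heads their columns as treated, so they are kept apart from both conditions here. By the labels S34F made up 12% and 14% of U2AF1 mRNA in WT dox+, 62% and 65% in S34F dox+, 33% in both WT dox- libraries, 28% in S34F dox- and 32% in both parental libraries. There was no line with an empty construct, so doxycycline itself and the induced U2AF1 cannot be told apart, and a difference between the lines cannot be told apart from one between the subclones. The dose and duration of doxycycline for these libraries, and whether replicates came from separate cultures, are not given in the sources used here, so p-values measure only the spread between these libraries.

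Human mtDNA is transcribed from both strands as long polycistronic RNAs, and the tRNAs that punctuate them are cut out to release the mRNAs and rRNAs. The polymerase POLRMT with TFAM and TFB2M starts transcription, and RNA-binding proteins such as LRPPRC and SLIRP then stabilise the mature mRNAs. The mRNAs encode core subunits of respiratory complexes I, III and IV and of the ATP synthase (complex V), which are translated on mitochondrial ribosomes. Doxycycline, a tetracycline, is known to inhibit that translation, which makes these genes a natural set to examine in a doxycycline-inducible system.

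The libraries differed in ways that bear on every value. U2AF1, the induced gene, was at 277.6 and 299.1 FPKM in the WT dox+ libraries, at 164 and 223 in those of S34F dox+ and at 103 to 115 in the other 5. All 10 epithelial markers examined, EPCAM, KRT8 and NKX2-1 among them, were at 1 FPKM or more in all 9 libraries, and 1 of 6 fibroblast (COL1A1) and 1 of 5 leukocyte markers (CD68) was. LUM and CD14 stayed under 1 FPKM in all 9, and the rest reached 1 in some. Summed fibroblast markers were at 6.23 to 13.4 FPKM in the dox+ libraries and 3.57 to 7.57 in the other 5. Summed leukocyte markers were at 21.2 to 36.4 and 15.5 to 28.3, and summed epithelial markers at 8529 to 9897 and 9495 to 11572. The values are not counts, so the depth is unknown and intervals for counting error are left out. Relative depth was estimated from the most frequent ratio between libraries among low FPKM values, with parental replicate 1 set to 1, and came to 0.603 to 1.08 in the 4 dox+ libraries and 0.979 to 2.51 in the other 5. Between 15736 and 20896 genes reached 1 FPKM with doxycycline and between 13661 and 14688 without. The number of genes detected thus separated dox+ from all other libraries, while relative depth overlapped, and their part in the results was not tested.

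Complex I, the NADH dehydrogenase that feeds electrons into the respiratory chain, has 7 mtDNA-encoded subunits. MT-ND4 (ENSG00000198886.2) was at 4059 and 5436 FPKM in the parental line, 4714 and 5247 in WT dox-, 5338 in S34F dox-, 5283 and 4153 in WT dox+ and, for S34F dox+, 3777 and 5306. MT-ND2 (ENSG00000198763.3) was at 3675 and 4939 FPKM in the parental line, 4151 and 4389 in WT dox-, 4629 in S34F dox-, 3856 and 3415 in WT dox+ and, for S34F dox+, 2589 and 3780.2. MT-ND1 (ENSG00000198888.2) was at 3395 and 4271 FPKM in the parental line, 3339 and 3654 in WT dox-, 3349 in S34F dox-, 3537 and 2938 in WT dox+ and, for S34F dox+, 2046 and 3194. Of these 3, MT-ND2 was lower in all 4 dox+ libraries than in the 3 dox- libraries of the transduced lines, but its range reached into that of the parental line, and MT-ND1 and MT-ND4 overlapped between the conditions.

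MT-ND6 (ENSG00000198695.2), the single mRNA encoded on the other strand, was at 2798 and 3112 FPKM in the parental line, 2844 and 2629 in WT dox-, 2643 in S34F dox-, 2876 and 2629 in WT dox+ and, for S34F dox+, 1999.9 and 3394. MT-ND5 (ENSG00000198786.2) was at 2104 and 2549 FPKM in the parental line, 2211 and 2222 in WT dox-, 2148 in S34F dox-, 2519.8 and 2138 in WT dox+ and, for S34F dox+, 1672 and 2544. Both overlapped between the libraries with and without doxycycline. MT-ND4L (ENSG00000212907.2), whose reading frame overlaps that of MT-ND4, was at 1992 and 2510.4 FPKM in the parental line, 2150.3 and 2449 in WT dox-, 2316 in S34F dox-, 2506 and 1923 in WT dox+ and, for S34F dox+, 1672 and 2409.5. MT-ND3 (ENSG00000198840.2), the least abundant of the mRNAs, was at 1357 and 1516 FPKM in the parental line, 1281 and 1257 in WT dox-, 1448 in S34F dox-, 1237 and 1147 in WT dox+ and, for S34F dox+, 919 and 1225. MT-ND3 was lower in all 4 dox+ libraries than in all 5 others, by a margin between the closest libraries that was small beside the spread within S34F dox+.

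Complex III and complex IV carry electrons on to oxygen. MT-CYB (ENSG00000198727.2), cytochrome b of complex III, was at 2164 and 2743 FPKM in the parental line, 2223 and 2021 in WT dox-, 2144 in S34F dox-, 2269.8 and 2023 in WT dox+ and, for S34F dox+, 1557 and 2489.6. MT-CO1 (ENSG00000198804.2), the catalytic subunit of complex IV (cytochrome c oxidase), was at 6542 and 8645 FPKM in the parental line, 6328 and 7151 in WT dox-, 6987 in S34F dox-, 8922 and 7416 in WT dox+ and, for S34F dox+, 6498 and 9579. It was the most abundant of the 13 MT mRNAs on average, and the highest FPKM of any MT mRNA, 9579, was that of MT-CO1 in S34F dox+ replicate 2. MT-CO2 (ENSG00000198712.1), which takes electrons from cytochrome c, was at 3086 and 4105 FPKM in the parental line, 3197 and 3717 in WT dox-, 4239.6 in S34F dox-, 3806 and 2985 in WT dox+ and, for S34F dox+, 2738 and 3971. MT-CO3 (ENSG00000198938.2), another core subunit of complex IV, was at 3521 and 4279 FPKM in the parental line, 2931 and 3437 in WT dox-, 3504 in S34F dox-, 3015 and 2576 in WT dox+ and, for S34F dox+, 2171 and 3207. All 4 genes overlapped between the conditions.

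Complex V has 2 mtDNA-encoded subunits, which lie on 1 RNA with overlapping reading frames. MT-ATP6 (ENSG00000198899.2), a subunit of the proton channel, was at 5309 and 6849 FPKM in the parental line, 5331 and 6018 in WT dox-, 6662 in S34F dox-, 5622 and 4631 in WT dox+ and, for S34F dox+, 4046 and 5998. MT-ATP8 (ENSG00000228253.1) was at 5147 and 7348 FPKM in the parental line, 5357 and 6729 in WT dox-, 7332 in S34F dox-, 6245 and 4507 in WT dox+ and, for S34F dox+, 4194 and 6677. Levels of the pair moved together, with a ratio of MT-ATP8 to MT-ATP6 between 0.970 and 1.12, and that of MT-ND4L to MT-ND4 lay between 0.434 and 0.491. Reads from the overlaps can be assigned to either gene, so the members of each pair are not separate measurements.

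The 2 rRNAs of the mitochondrial ribosome were the most abundant members. MT-RNR1 (ENSG00000211459.2), the 12S rRNA, was at 13113 and 15839.8 FPKM in the parental line, 10812 and 11452 in WT dox-, 11174 in S34F dox-, 13982 and 11580.2 in WT dox+ and, for S34F dox+, 7749 and 12024. MT-RNR2 (ENSG00000210082.2), the 16S rRNA, was at 11496 and 15032 FPKM in the parental line, 9852 and 9861 in WT dox-, 9877 in S34F dox-, 13973 and 10313 in WT dox+ and, for S34F dox+, 6336 and 11316. Both were lowest in S34F dox+ replicate 1 and highest in parental replicate 2. How far rRNA was depleted before sequencing is not given in the sources used here, so these levels may not reflect the amount of rRNA in the cells. All 22 tRNA genes, MT-TL1, MT-TF and MT-TV among them, were listed at 0 in all 9 libraries; an exact 0 in a file without counts can be a failed estimate, and mature tRNAs are shorter than the reads.

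**Figure D1:**
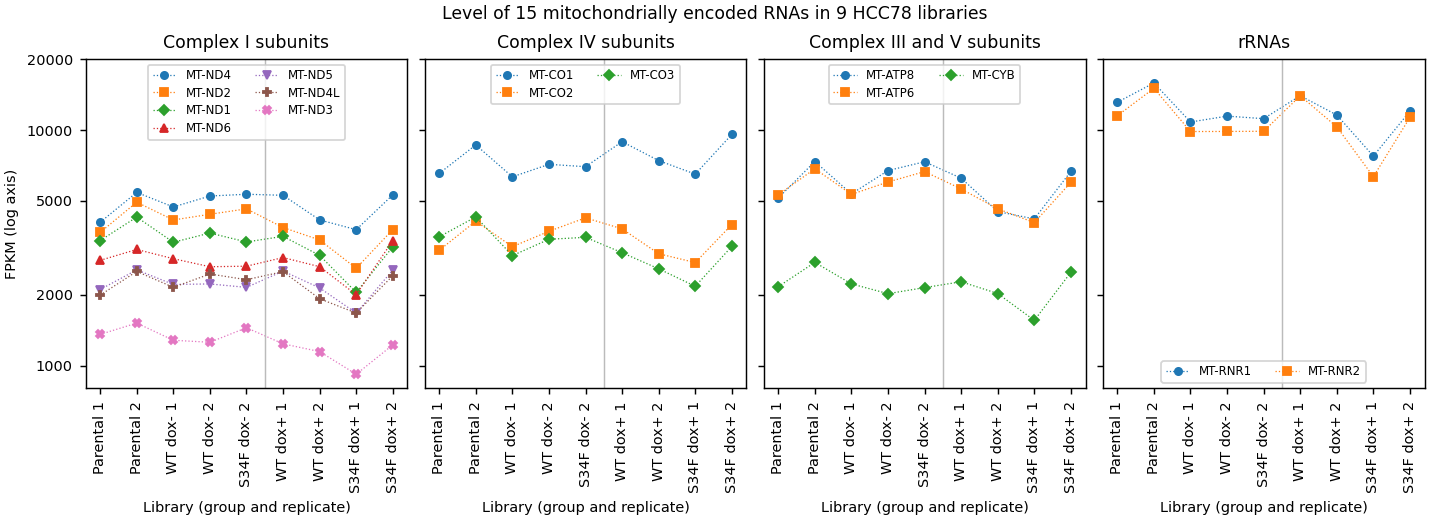
FPKM (log axis) of the 7 complex I, 3 complex IV and 3 complex III and V mRNAs and the 2 rRNAs in each of the 9 libraries, 1 point per library, with those of the dox+ groups right of the grey line and dotted lines joining points only to guide the eye. Most genes dip together in S34F dox+ replicate 1, and MT-CO1 is the exception among the mRNAs, with its lowest value of 6328 FPKM in WT dox- replicate 1.

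The order of levels within the set was stable for some neighbours and not for others. Ordered by mean FPKM, 5 of 14 neighbouring pairs held their order in all 9 libraries. MT-RNR1 was above MT-RNR2, MT-ATP6 above MT-ND4, MT-ND4 above MT-ND2, MT-ND6 above MT-ND5 and MT-CYB above MT-ND3 in every library. MT-ND3 stood furthest below its neighbour, with a mean log2 ratio of MT-CYB to MT-ND3 of 0.78 ± 0.13 (SD, n = 9). In contrast, MT-ND5, MT-ND4L and MT-CYB could not be ordered: the log2 ratio of MT-ND5 to MT-ND4L was 0.01 ± 0.09 (SD, n = 9) and that of MT-ND4L to MT-CYB 0.02 ± 0.14 (SD, n = 9). MT-ND1 and MT-CO3 differed by 0.05 ± 0.12 (SD, n = 9) on the same scale.

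As a share of the FPKM summed over all genes, the 13 MT mRNAs made up 3.77% and 4.78% in the parental line, 4.12% and 4.49% in WT dox-, 4.80% in S34F dox-, 4.82% and 3.74% in WT dox+ and, for S34F dox+, 2.90% and 4.63%. The dox+ libraries therefore held both the lowest and the highest share, and the conditions overlapped. The log2 difference of the share between the 4 dox+ and the 3 dox- libraries of the transduced lines was -0.18 (p = 0.514, two-sided exact permutation test). With 4 against 3 libraries this test cannot give a p below 0.0571. In bulk RNA, fewer mitochondria or cells and less mitochondrial RNA per cell cannot be told apart.

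S34F dox+ replicate 1 stood apart in the levels of these genes. It had the lowest level of 14 of the 15 members above 0, and of 12 of the 13 mRNAs. Small nuclear, small nucleolar and other small RNAs took 34.5% of its summed FPKM, the highest of the 9 libraries, against 26.1% to 31.4% in the other 8. Relative to nuclear protein-coding genes, which leaves those RNAs out, the MT mRNAs still came to 6.21% in this library and to 7.48% to 9.92% in the other 8. Without it, the log2 difference of the share between dox+ and dox- libraries was -0.03. S34F dox+ replicate 2 was extreme in other measures. It had 20896 genes at 1 FPKM, against 13661 to 17716 in the other 8 libraries, and the lowest relative depth, 0.603, with replicate 1 next at 0.702. Without replicate 2, the log2 difference of the share was -0.25.

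**Figure D2:**
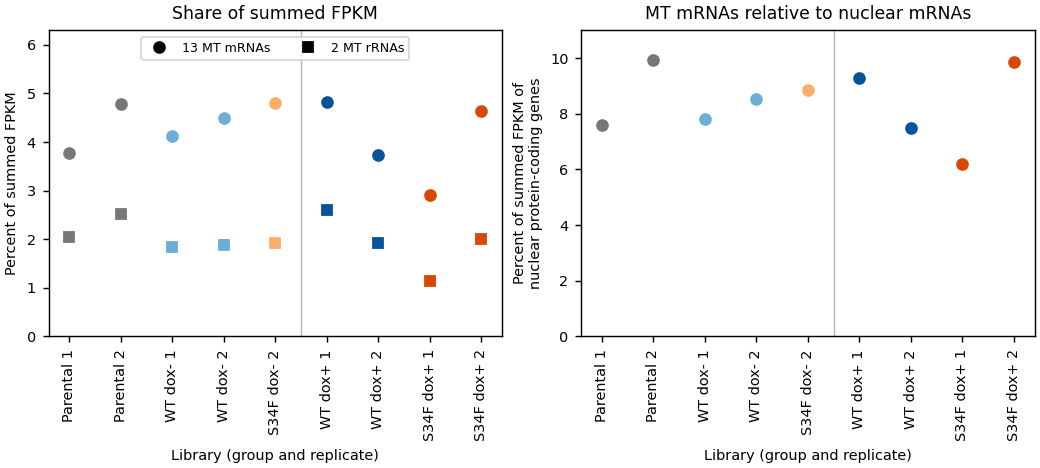
Left, percent of the summed FPKM of all genes taken by the 13 MT mRNAs (circles) and 2 MT rRNAs (squares); right, summed FPKM of the MT mRNAs as a percent of that of nuclear protein-coding genes; 1 point per library, coloured by group, dox+ groups right of the grey line. S34F dox+ replicate 1 is lowest for all 3 quantities, and replicate 2 of the same group, at 4.63% and 9.85% for the MT mRNAs, lies among the other libraries.

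The first question was whether S34F and wild-type U2AF1 differed in their effect on MT mRNAs in induced cells. In S34F dox+ against WT dox+, all 13 MT mRNAs had a log2 difference below 0, with a median of -0.08, but none passed an adjusted p of 0.05 (limma-trend on log2(FPKM + 1), Benjamini-Hochberg adjustment over the 15179 genes tested). Over all genes, 0.0527% passed and the median was 0.03. Differences ranged from -0.33 for MT-ND1 (standard error 0.22, adjusted p = 0.811 from limma) to -0.0036 for MT-ATP8. The rRNAs had the 2 largest differences of the set, -0.50 for MT-RNR2 (95% interval -1.15 to 0.14) and -0.40 for MT-RNR1 (-0.89 to 0.10), both with an adjusted p of 0.772 from limma. In the fit of all libraries, none of the 15 passed an unadjusted p of 0.05, with 4.01% of all genes higher and 2.77% lower at that p. The sign and size of the differences rested on single libraries, and fits without 1 library are given here by direction and median only. Without S34F dox+ replicate 1, 1 of 13 mRNAs was below 0 and the median was 0.20, against 0.05 over all genes. Without S34F dox+ replicate 2, all 13 were below 0 and the median was -0.37, against 0.006 over all genes. Without WT dox+ replicate 1, 6 of 13 were below 0 and the median was 0.03.

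The second question was the response to doxycycline in the WT line. In WT dox+ against WT dox-, 9 of 13 MT mRNAs had a difference below 0 and 4 above, with a median of -0.09, and none passed an adjusted or an unadjusted p of 0.05 in limma. Of all genes, 0.0132% passed the former, and 8.8% were higher and 5.59% lower at the latter. MT-CO1 had the highest difference among the mRNAs, 0.27 (95% interval -0.23 to 0.77, adjusted p = 0.591 from limma), and MT-ND2 the lowest, -0.23 (-0.71 to 0.24, adjusted p = 0.629 from limma). The rRNAs lay above 0, at 0.28 for MT-RNR2 and 0.19 for MT-RNR1. Quantile normalization gave 6 of 13 mRNAs below 0 and median-ratio scaling 12, so the balance of signs depended on scaling. Without WT dox+ replicate 1 the median was -0.25, and without WT dox+ replicate 2 it was 0.07.

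The S34F line was compared with 2 libraries with doxycycline and 1 without, whose spread is taken from the other groups. In S34F dox+ against S34F dox-, 12 of 13 MT mRNAs had a difference below 0, with a median of -0.36 against 0.09 over all genes. None passed an adjusted p of 0.05 in limma, which 0.283% of all genes did, and 1, MT-ND3, passed an unadjusted p of 0.05, as did 5.11% of all genes in this direction. This count depended on the processing. It was 6 of 13 with median-ratio scaling, under which 2433 of 15076 genes were lower at that p. With quantile normalization it was 4, and 920 of 15179 genes were lower. It was 0 with nuclear protein-coding scaling or the replicate block, where 437 of 15223 and 706 of 15179 genes were lower. MT-ND3 differed by -0.45 (95% interval -0.86 to -0.04, adjusted p = 0.284 from limma), and MT-ND2 by -0.57 (-1.15 to 0.02, adjusted p = 0.330 from limma). MT-CO1 was the mRNA above 0, at 0.18 (-0.44 to 0.79), but at -0.10 with median-ratio scaling, at -0.41 with quantile normalization and at -0.10 without S34F dox+ replicate 2. Without S34F dox+ replicate 1 the median of the 13 was -0.07 and 8 were below 0. Without S34F dox+ replicate 2 the median was -0.63 and all 13 were below 0. Median-ratio scaling moved the median of all genes in this comparison from 0.09 to -0.15, and that of the MT mRNAs to -0.64.

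The difference between the responses of both lines was tested as an interaction. All 13 MT mRNAs had a more negative difference in the S34F line, with a median of -0.22 against 0.03 over all genes, and none passed an adjusted or an unadjusted p of 0.05 in limma. Of all genes, 0.0264% passed the former, 2.21% were higher and 1.21% lower at the latter, and 54.2% had a difference above 0. The largest difference of the 13 was that of MT-ND3, -0.36 (95% interval -0.89 to 0.17). Without S34F dox+ replicate 1 the median was 0.06, and without S34F dox+ replicate 2 it was -0.50. With quantile normalization 3 MT mRNAs passed an unadjusted p of 0.05, where 262 of 15179 genes were higher and 249 lower. The comparison draws on the same S34F dox+ libraries as the 2 others that involve them.

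In WT dox- against the parental line, 10 of 13 MT mRNAs had a difference below 0, with a median of -0.09 against 0 over all genes, and none passed an adjusted or an unadjusted p of 0.05 in limma. Of all genes, 0.0988% passed the former, and 5.79% were higher and 6.54% lower at the latter. TPM and quantile normalization each gave 6 of 13 below 0. MT-CO3 was lowest among the mRNAs at -0.29 (95% interval -0.76 to 0.18). MT-RNR2 differed by -0.42 (-1.06 to 0.23) and MT-RNR1 by -0.37 (-0.87 to 0.12). The median was 0.07 without parental replicate 2 and -0.26 without parental replicate 1. Standard errors in the 5 comparisons were 0.14 to 0.44 for the MT mRNAs and rRNAs. In simulated data of the same size, 60 of 200 genes changed by 1 on the log2 scale were recovered in S34F dox+ against WT dox+ and 37 of 200 in WT dox+ against WT dox-. The changed genes were drawn at random from all genes tested, so the recovery of MT mRNAs and rRNAs in particular is not known. Smaller changes were not simulated.

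**Figure D3:**
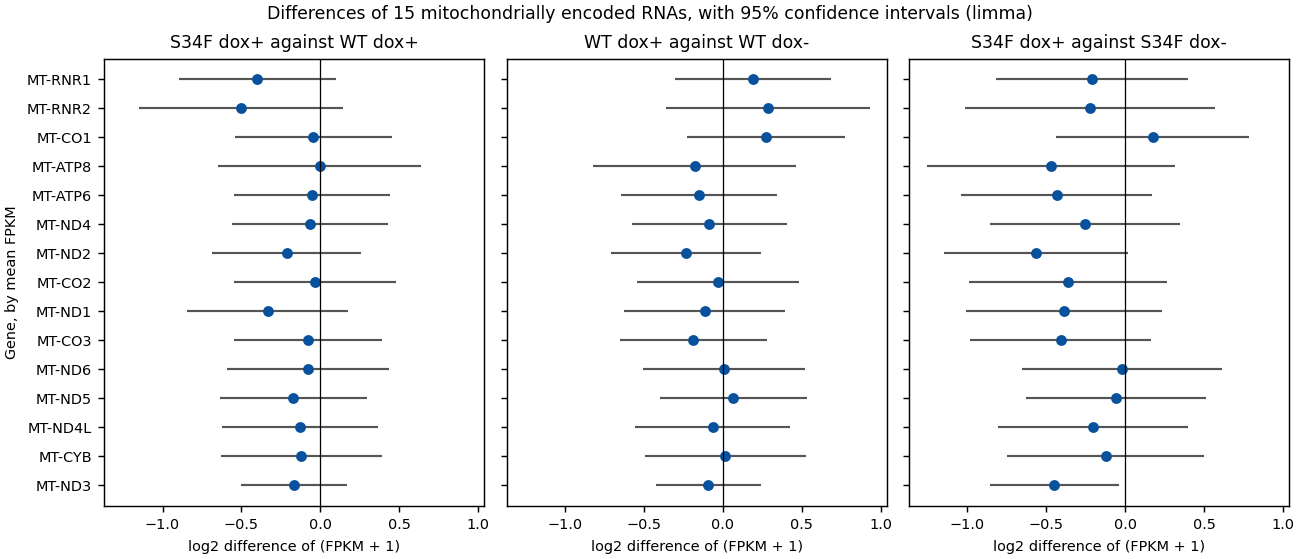
Differences in log2(FPKM + 1) of the 13 MT mRNAs and 2 rRNAs, ordered by mean FPKM, in 3 comparisons, with points for the estimates and lines for the 95% confidence intervals of the limma fit. All intervals include 0 except that of MT-ND3 in S34F dox+ against S34F dox-, and MT-CO1 is the mRNA above 0 in that comparison.

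Counted without a model, 2 of 13 MT mRNAs, MT-ND2 and MT-ND3, had an FPKM in all 4 dox+ libraries below that in all 3 dox- libraries of the transduced lines, and 0 lay above. Over all genes tested 9.76% lay below and 15.2% above. With the parental libraries added to those without doxycycline, 1 of 13, MT-ND3, remained below, and 3.16% of all genes did, with 7.64% above.

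Each MT mRNA was then set against the others of the same library, as the log2 ratio of its FPKM to the median of the other 12, which a single factor per library cannot change. Quantile normalization, which rescales each gene by its rank, can change it. For 12 of 13 mRNAs the ratio varied less over the 9 libraries than the level did. SDs were 0.19 to 0.30 for log2 levels. For log2 ratios they were 0.09 to 0.18, apart from MT-CO1, whose ratio had an SD of 0.26 against 0.22 for its level.

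The ratio of MT-CO1 separated the conditions. It was 1.02 and 1.05 in the parental line, 1.05 and 1.01 in WT dox-, 1.03 in S34F dox-, 1.45 and 1.42 in WT dox+ and, for S34F dox+, 1.62 and 1.54. All 4 dox+ libraries thus lay above all 5 others, which themselves spanned 1.01 to 1.05. The mean difference between the 4 dox+ and 3 dox- libraries was 0.48, or 1.39-fold, against a spread within groups of 0.04 (pooled SD). It was 0.40 in the WT line and 0.55 in the S34F line. After quantile normalization MT-CO1 differed by 0.25 in the WT line, where the median of the 13 mRNAs was 0.0031. In the S34F line it differed by -0.41 and was itself the median of the 13, so it did not stand above the other mRNAs there. Leaving out any 1 of these 7 libraries gave 0.44 to 0.51. MT-CO1 was singled out after its values were seen, so the difference carries no test; in the limma fit with libraries scaled to the MT mRNAs, which was also added after seeing the data, MT-CO1 differed by 0.36 in the WT line (adjusted p = 0.966) and by 0.54 in the S34F line (adjusted p = 0.427), and was not called. More genes were detected in the same 4 dox+ libraries, as given above.

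MT-ND5 showed a smaller difference in the same direction. Its ratio was -0.54, -0.47, -0.50 and -0.49 in the dox+ libraries and -0.84 to -0.56 in the other 5, with no overlap, a difference of 0.21 and a spread within groups of 0.07. MT-ND2 was lower relative to the other mRNAs, at 0.20 to 0.30 with doxycycline and 0.31 to 0.44 in the 3 dox- libraries, a difference of -0.14, but the parental line at 0.18 and 0.24 overlapped with dox+. In all, 2 of 13 ratios were higher and 1 lower in dox+ without overlap with the 3 dox- libraries. For comparison, among all genes set against the median of nuclear protein-coding genes, 13.2% were higher and 12.6% lower in this sense, and 6.48% and 5.26% when the parental libraries were added to the others. On that same reference, the nuclear median, 0 of 13 MT mRNAs were higher and 2 lower than in the 3 dox- libraries, and 0 and 1 with the parental libraries added. Ratios to the other MT mRNAs, of which 2 were higher and 0 lower with the parental libraries added, have no such share over all genes.

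The 2 strands were compared through MT-ND6. Its ratio to the 12 mRNAs of the other strand was -0.54 to -0.20 in the 3 dox- libraries of the transduced lines and -0.35 to -0.04 in the 4 dox+ libraries. The ranges overlapped, and the difference of 0.21 did not pass the two-sided exact permutation test (p = 0.171). The library kit keeps the strand of the RNA, but whether the counting used it is not given in the sources used here, so reads of the opposite strand may enter the values of MT-ND6.

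The ratio of rRNA to mRNA was also compared between the conditions. Summed FPKM of MT-RNR1 and MT-RNR2 relative to that of the 13 mRNAs was 0.545 and 0.530 in the parental line, 0.449 and 0.419 in WT dox-, 0.399 in S34F dox-, 0.541 and 0.515 in WT dox+ and, for S34F dox+, 0.393 and 0.434. The WT dox+ libraries lay with the parental line, and the S34F dox+ libraries with the dox- libraries. The log2 difference between the 4 dox+ and 3 dox- libraries was 0.15 (p = 0.400, two-sided exact permutation test), and 0.01 with the parental libraries added to those without doxycycline.

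**Figure D4:**
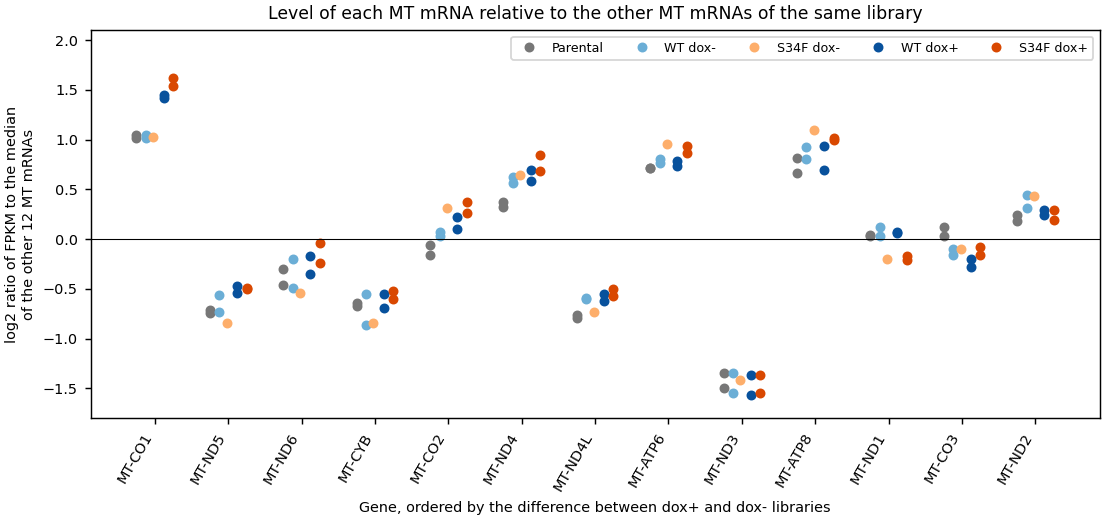
Log2 ratio of the FPKM of each MT mRNA to the median of the other 12 in the same library, 1 point per library coloured by group, with genes ordered by the mean difference between dox+ and dox- libraries. MT-CO1 at the left is at 1.42 to 1.62 in the 4 dox+ libraries and at 1.01 to 1.05 in the other 5, and MT-ND1 is lower in the 3 libraries of the S34F line, with and without doxycycline, than in the other 6.

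A second pattern in the ratios followed the line rather than doxycycline. MT-ND1 relative to the other mRNAs was -0.20 in S34F dox- and -0.21 and -0.17 in S34F dox+. In the other 6 libraries it was 0.03 to 0.13, so that the 3 libraries of the S34F line lay below all others. The mean was lower in the S34F line than in the WT line by 0.27 on the log2 scale, or 0.832-fold. MT-CO2, at 0.27 to 0.38 in the S34F line, lay above all 6 others, which reached 0.22. MT-ATP6, at 0.86 to 0.96 against at most 0.80, and MT-ATP8, at 0.99 to 1.10 against at most 0.94, did so as well. MT-ATP6 and MT-ATP8 share reads and count as 1 observation. The spread within groups (pooled SD) of these ratios was 0.04 for MT-ND1, 0.07 for MT-CO2, 0.04 for MT-ATP6 and 0.11 for MT-ATP8. For MT-CO2 and MT-ATP8 the gap between the closest libraries of the S34F line and the others was smaller than this spread. Counting MT-ATP6 and MT-ATP8 separately, 3 of 13 ratios were higher and 1 lower in the S34F line without overlap with the 4 libraries of the WT line, and the same counts held against all 6 other libraries. Among all genes set against the median of nuclear protein-coding genes, 2.37% were higher and 2.62% lower than in the WT line in this sense, and 1.03% and 1.23% against all 6. That reference is not the one of the 13 ratios, so the counts cannot be read against those shares. These genes were found after the values were seen, so no test is given.

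Nuclear DNA holds copies of mtDNA, which are listed as genes of their own. How reads were shared between them and the MT- genes was not tested. The table lists 390 nuclear pseudogenes of mitochondrial origin, 14 of them with a mean of at least 1 FPKM. MTATP6P1, a copy of MT-ATP6, was listed at 1659 to 2924 FPKM, 0.407 to 0.456 of the level of MT-ATP6, in every library. The log2 difference of MT-ATP6 between dox+ and dox- libraries was -0.25 alone and -0.24 with the FPKM of MTATP6P1 added. MTCO1P12, a copy of MT-CO1 that the table lists as hsa-mir-6723, was at 51.3 to 108 FPKM and at 0.789% to 1.15% of MT-CO1. MTND2P28 was at 1.24% to 1.56% of MT-ND2, and MTND1P23 at 2.08 to 5.78 FPKM. The ratios of MTCO1P12 to MT-CO1 overlapped between dox+ libraries, at 0.789% to 1.13%, and the others, at 0.979% to 1.15%. The other 386 copies summed to 93.5 to 228 FPKM in the 4 dox+ libraries and to 37.6 to 74.0 in the other 5, and moved with the number of genes detected.

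The last comparison was with 46 nuclear genes that transcribe mtDNA or process, stabilise and degrade its RNA. All 46 were tested, and none passed an adjusted p of 0.05 in limma in any of the 5 comparisons. In WT dox+ against WT dox-, 36 of 46 had a difference below 0, with a median of -0.20, and in S34F dox+ against S34F dox-, 36 of 46 did so, with a median of -0.23. Over all genes the medians were 0.05 and 0.09, and 55.9% and 58.1% of genes lay above 0. The number below 0 was 34 to 39 in the WT line and 33 to 44 in the S34F line over 3 scalings and TPM, but with libraries scaled to the MT mRNAs it was 34 and 14. An unadjusted p of 0.05 was passed by 8 genes that were lower in the WT line, against 5.59% of all genes, and by 7 that were lower and 1 that was higher (POLG2) in the S34F line, against 5.11% and 10.6%. In the WT line the median of the 46 was -0.12 without WT dox- replicate 1 and -0.28 without WT dox- replicate 2. It was -0.13 and -0.26 without WT dox+ replicates 1 and 2. With libraries scaled to the MT mRNAs 0 passed an unadjusted p of 0.05 in the WT line. There, 76 of 15179 genes were lower and 952 higher at that p. In the S34F line the count of 8 became 17 with TPM and 21 with median-ratio scaling, all lower. Of all genes, 1593 of 14529 were lower with TPM and 2433 of 15076 with median-ratio scaling. With libraries scaled to the MT mRNAs the count was 1, where 57 of 15179 genes were lower and 2132 higher. With nuclear protein-coding scaling the count was 5 in each line. Of 15223 genes, 467 were lower and 1802 higher in the WT line there, and 437 and 1994 in the S34F line. ELAC2, MRM3, PNPT1, SLIRP and TBRG4 were among the lower genes in both lines.

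By role, differences below 0 were found in the WT line for 9 of 14 genes listed under transcription and its control, mtDNA replication included. They were found for 13 of 16 of processing and modification, 10 of 11 of stability and 4 of 5 of decay. In the S34F line the numbers were 11, 12, 8 and 5. SLIRP, which binds and stabilises MT mRNAs, was at 603 and 645 FPKM in the parental line, 919 and 759 in WT dox-, 846 in S34F dox-, 542 and 624 in WT dox+ and, for S34F dox+, 529 and 586. All 4 dox+ libraries lay below the 3 dox- libraries, as for 9.76% of all genes, and the parental line overlapped with dox+. Differences were -0.52 in the WT line (standard error 0.13, adjusted p = 0.179 from limma) and -0.60 in the S34F line (standard error 0.16, adjusted p = 0.176 from limma). LRPPRC, the partner of SLIRP, was at 108 and 119 FPKM in the parental line, 121 and 111 in WT dox-, 123 in S34F dox-, 103 and 114 in WT dox+ and, for S34F dox+, 81 and 97.2, with differences of -0.09 in the WT line and -0.46 in the S34F line and an overlap between the conditions.

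The factors that start transcription included POLRMT, TFAM and TFB2M. POLRMT, the RNA polymerase, was at 17.3 and 19.7 FPKM in the parental line, 25.3 and 20.5 in WT dox-, 23.9 in S34F dox-, 17.4 and 19 in WT dox+ and, for S34F dox+, 22.7 and 19.2. TFAM, which packages mtDNA and starts transcription, was at 51 and 55.3 FPKM in the parental line, 59.7 and 58.7 in WT dox-, 61.1 in S34F dox-, 49.2 and 58.1 in WT dox+ and, for S34F dox+, 58.7 and 46.6. POLRMT overlapped between the conditions, and TFAM lay just below in dox+, at no more than 58.66 FPKM against at least 58.7 in the dox- libraries, with the parental line inside the range of dox+. TFB2M, the initiation factor, was at 23.6 and 29.2 FPKM in the parental line, 26.4 and 19.8 in WT dox-, 23.1 in S34F dox-, 17.4 and 15.4 in WT dox+ and, for S34F dox+, 18.8 and 18.6. The 4 dox+ libraries of TFB2M lay below the 3 dox- and 2 parental libraries, as 3.16% of all genes did. Its closest libraries were at 18.8 and 19.8 FPKM. Below the 3 dox- libraries alone, as TFAM was, lay 9.76% of all genes. TFB2M differed by -0.46 in the WT line (adjusted p = 0.304 from limma) and by -0.29 in the S34F line (adjusted p = 0.529 from limma). In WT dox- against the parental line the list leaned the other way, with 34 of 46 above 0, a median of 0.14 and 6 genes higher at an unadjusted p of 0.05, against 49.6% and 5.79% of all genes. The 6 became 11 with TPM, where 1499 of 14529 genes were higher and 598 lower at that p. The median of the 46 was 0.14 without parental replicate 1 and 0.19 without parental replicate 2. Without WT dox- replicate 1 it was 0.06, with 29 of 46 above 0, and without WT dox- replicate 2 it was 0.19, with 37 above 0. In S34F dox+ against WT dox+, 30 of 46 were below 0, with a median of -0.06, where 55% of all genes were above 0. At an unadjusted p of 0.05, 1 gene, TRIT1, was higher, against 4.01% of all genes, and 0 were lower, against 2.77%. The lean depended on single libraries. Without S34F dox+ replicate 2, 25 of 46 were below 0, with a median of -0.04, and without S34F dox+ replicate 1, 24 were, with a median of -0.04. Leaving out WT dox+ replicate 1 gave 31 below 0 and a median of -0.11. Leaving out WT dox+ replicate 2 gave 21 below 0 and a median of 0.03.

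**Figure D5:**
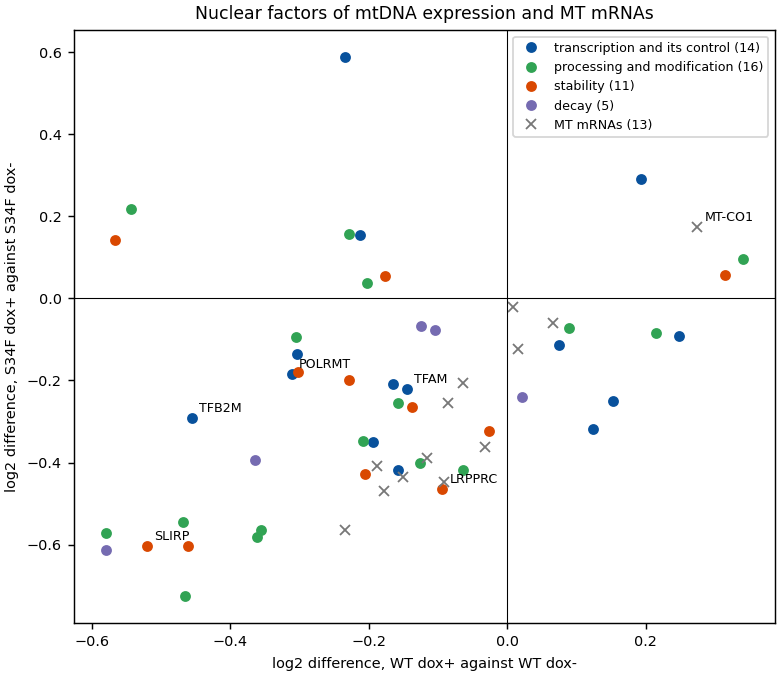
Differences in log2(FPKM + 1) of the 46 nuclear factors of mtDNA expression (circles, coloured by role) and the 13 MT mRNAs (crosses) in the S34F line against those in the WT line. Most nuclear factors lie below 0 on both axes, SLIRP at -0.52 and -0.60 among them, and MT-CO1 is the MT mRNA above 0 on both.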

How the data were processed

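The authors made libraries from total RNA with a stranded kit, trimmed the reads, aligned them with STAR 2.3.0 and quantified genes with RSEM 1.2.29, per the methods and the submitters' processing notes, which name GRCh37 (hg19). The deposited FPKM and TPM per gene were used as they are, and TPM as deposited by the authors served as an alternative. The MISO splicing tables hold the authors' own comparison and were not used here, and the 2 iCLIP samples were not analysed here. No coordinates or sequences are given because no reference of that build was at hand.

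Genes averaging 1 FPKM or more over the 9 libraries (15179) were fitted as log2(FPKM + 1) with limma 3.58.1 (trend, R 4.3.3) in a single fit of the 5 groups, with two-sided tests and Benjamini-Hochberg adjustment. Single quantities were compared by exact permutation over libraries (scipy 1.17.1). Simulated data with known changes served to test the procedure. Nuclear copies were found by symbol, also through gene IDs, of which 51996 matched a symbol. The genes named were all MT mRNAs and rRNAs, the first 3 tRNAs, POLRMT, TFAM, TFB2M, LRPPRC and SLIRP of the nuclear list, and the 3 most abundant nuclear copies by name, with MTCO1P12 added by its ID after its values were seen. Members and lists were chosen with earlier results of these data known. Alternatives covered the pseudocount (0.1), the minimum (none, 5 FPKM), TPM, scaling, protein-coding genes only, the libraries in the fit, a replicate block and each library left out.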

Additional observations from a re-analysis of the deposited data

How the results depend on the processing

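No MT mRNA and no nuclear factor of mtDNA expression passed an adjusted p of 0.05 in limma under any alternative, in any comparison tested. The median difference of the MT mRNAs depended on single libraries: leaving out each in turn gave -0.37 to 0.20 in S34F dox+ against WT dox+ and -0.63 to -0.068 in S34F dox+ against S34F dox-. S34F dox+ replicate 1 set the upper and S34F dox+ replicate 2 the lower value in both. In S34F dox+ against WT dox+, MT-ND2 turned to 0.034 and MT-ATP8 to 0.24 when libraries were scaled to the MT mRNAs, an alternative added after seeing the data, and leaving out single libraries gave -0.49 to 0.059 for MT-ND2 and -0.34 to 0.33 for MT-ATP8, which was at 0.23 without WT dox+ replicate 1. In S34F dox+ against S34F dox-, MT-CO1 turned to -0.10 with median-ratio scaling and to -0.41 with quantile normalization, and leaving out single libraries gave -0.10 to 0.46. The cause of these changes was not tested. The remaining 641 values kept their direction and side of the threshold, or moved by less than the spread between replicates. Replicate numbers in the labels are shared between groups, but deviations of libraries with the same number correlated at only -0.08 to 0.04 over genes, so they are not taken as pairs. With the replicate block, 0 MT mRNAs passed in every comparison and their median in S34F dox+ against S34F dox- was -0.26. Depth is unknown, so no limit set by counting can be given.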
